A study of Mus musculus with 50 samples.

Results

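The kidney and the liver of young mice were compared by the RNA of 8 libraries, 4 of young kidney and 4 of young liver, chosen by tissue and age as the labels give them out of 50 samples in 14 groups. The mice were C57BL/6, 2.5 months old and untreated, and per the study's methods they were female. Tissue samples were frozen in liquid nitrogen and RNA was taken with TRIzol, with no sort of cells stated, so each library mixes the cell types of its tissue. Old C57BL/6 mice of 23 to 25 months, with 4 kidney and 4 liver libraries, gave the same contrast in other samples. Nothing in the labels says that the 4 libraries of a group came from separate mice, so p-values here measure the spread between these libraries only.

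The kidney filters blood in the glomerulus and then recovers salt, glucose, amino acids and water along the nephron, where each segment has its own set of transporters. The liver makes most plasma proteins, forms bile, and turns nitrogen into urea, and its hepatocytes divide these tasks between the portal and the central ends of the lobule. The organs share gluconeogenesis and a group of hepatocyte nuclear factors, which makes them a useful pair for asking which parts of epithelial metabolism are common and which belong to 1 organ.

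The libraries held 14238228 to 21879849 reads in genes in the kidney and 20703387 to 22783194 in the liver. The 10 most abundant genes of a library took 8.3% to 10.3% of kidney reads and 20.2% to 25.3% of liver reads, and Alb alone took 10.5% to 14.2% of liver reads. Levels are given below as CPM, counts per 1000000 after TMM normalisation, as the mean ± SD of 4 libraries, and a log2 difference is kidney minus liver unless said otherwise. Of 24984 genes listed, 14057 passed the filter on low counts and were tested. Of these, edgeR's quasi-likelihood test called 3618 higher in the kidney (25.7%) and 2369 higher in the liver (16.9%), a call being an adjusted p below 0.05 together with more than a 2-fold difference. The libraries of the organs did not overlap for 8501 genes (60.5%), and for 5223 genes (37.2%) the whole 95% interval of the difference lay within 2-fold. More than 16-fold differences were called for 1280 genes higher in the kidney and 627 higher in the liver. The genes called for the liver held 66.9% to 70.2% of liver reads, and those called for the kidney held 32.7% to 33.4% of kidney reads. The median log2 difference of all genes tested was 0.08. Scaling to total counts in place of TMM moved that median by 1.08 toward the kidney, and the calls became 7802 for the kidney and 1240 for the liver. All 3618 kidney calls stood under that scaling, while 1240 of the 2369 liver calls did. Where this scaling moved the larger count of a list by more than 1.5 times, the counts are given both ways below, as TMM and then total counts.

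The defining genes of both organs fit the labels. Umod (chromosome 7, 119462708 to 119479262, minus strand, mm10), which encodes uromodulin, the protein of the thick ascending limb that is shed into urine, was at 4272, 4399, 4330 and 4819 CPM in the 4 kidney libraries, and not 1 read fell on it in the liver. With the floor of 3 counts over the 4 liver libraries, it was at least 89700-fold higher in the kidney. Alb, which encodes serum albumin, was at 145100, 141100, 184100 and 233300 CPM in the liver and at 7.02, 10.3, 10.5 and 10.8 CPM in the kidney, a log2 difference of -14.15 (SE 0.48). Every liver library was thus far above every kidney library. In the kidney libraries, plasma protein genes were at a median of 0.0289% to 0.0494% of their liver level, and proximal tubule genes in the liver libraries were at a median of 0% to 0.0375% of their kidney level. Because tissue and not sorted cells was used, fewer cells of a type and less RNA per cell cannot be told apart in any value below.

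**Figure D1:**
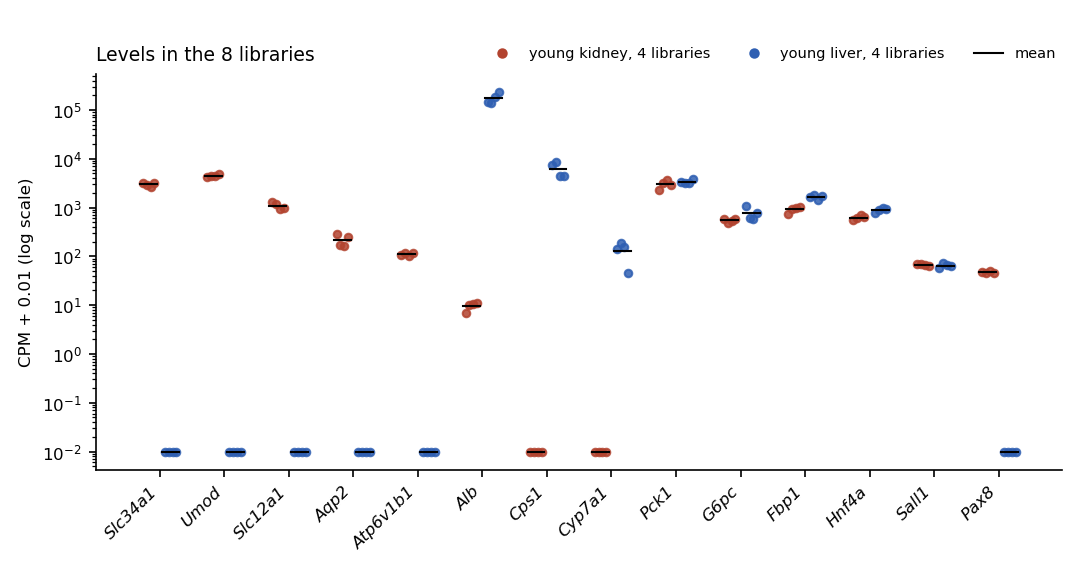
Level in each of the 8 libraries (CPM plus 0.01, log10 axis) of 14 genes, with 1 point per library (red for kidney, blue for liver) and a bar at the mean. Umod and Slc34a1 had no read in the liver and Cps1 and Cyp7a1 none in the kidney, so those points lie at 0.01, while the points of Pck1 from both organs lie together.

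Genes that mark the segments of the nephron were higher in the kidney in nearly every case. Over the 8 kidney lists, 92 genes were called higher in the kidney, 5 higher in the liver and 5 neither (96, 2 and 4 with total counts), where 25.7% and 16.9% of all genes tested were higher in the kidney and the liver. In the glomerulus, podocytes hold the slit diaphragm that keeps protein in the blood. Here 10 of 12 podocyte genes were higher in the kidney (median log2 difference 4.77), led per exon length by Npnt, a matrix ligand of integrin, and Podxl, the sialomucin of the foot process. Podxl was at 279, 233, 195 and 176 CPM in the kidney and also had liver reads, at 11, 13.7, 8.06 and 7.57 CPM. Of the other two, 1 was higher in the liver, and Plce1, a phospholipase, had a log2 difference of -0.81 that missed the fold threshold.

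The proximal tubule recovers most of the filtrate. Of its 22 genes, 20 were higher in the kidney, with a median log2 difference of 11.44. Slc34a1, the sodium-phosphate cotransporter, was at 3180, 2902, 2618 and 3206 CPM in the kidney and at 0 reads in the liver, at least 60300-fold higher. Slc5a2, the glucose transporter of the early segment, stood at 346, 280, 298 and 350 CPM and also had no liver read, at least 6390-fold higher. For both genes the kidney libraries lay close together and apart from the liver. Lrp2, which encodes megalin, the receptor that takes filtered protein back into the cell, varied more, from 1375 to 3001 CPM, and its liver mean was 0.249 CPM. Its partner Cubn was at 459 ± 104 CPM against 0.117 ± 0.105. Pdzk1, a scaffold under the brush border, and Slc13a3, a dicarboxylate transporter, were also present in the liver, at 141 ± 19.8 and 27.9 ± 4.15 CPM, and were higher in the kidney by 7.79-fold and 22.6-fold. Slc26a1, a sulfate exchanger known from both organs, was 2.48-fold higher in the liver (not called with total counts), and Slc9a3r1, another scaffold, was not called, at 259 ± 33.6 and 258 ± 38.1 CPM (95% interval of the log2 difference -0.32 to 0.33).

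In the straight proximal tubule, 9 of 10 genes tested were higher in the kidney (median 5.41), with Napsa, an aspartic protease, at 3175 ± 887 CPM in the kidney and 0.718 ± 0.37 in the liver. Acy3, which deacetylates mercapturates, was 5.84-fold higher in the kidney, and the amino acid transporter Slc7a12 was at least 5880-fold higher. Slc22a30 was the exception, at 13.2 ± 3.93 CPM in the kidney and 182 ± 36.4 in the liver. It belongs with Slc22a19 to a cluster of near-identical transporter genes, and how reads were shared among them is uncertain.

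In the thick ascending limb of the loop of Henle 13 of 14 genes were higher in the kidney, with a median log2 difference of 12.91, the highest of the 8 segment lists, and the median gene had no read in any liver library. Slc12a1, the sodium-potassium-chloride cotransporter that loop diuretics block, was at 1295, 1208, 913 and 959 CPM against 0 in the liver, at least 22500-fold higher. Egf, the growth factor precursor made in this segment, was at 1948 ± 148 CPM and 0.369 ± 0.32 CPM. Only Cldn14 of this list was higher in the liver, at 11.5 ± 1.1 CPM against 0.146 ± 0.0761, and it encodes a claudin that is low in this segment unless calcium is high. All 13 genes of the distal convoluted and connecting tubule were higher in the kidney (median 6.79). Slc12a3, the thiazide-sensitive cotransporter, was at 601, 543, 491 and 528 CPM and had no liver read, at least 11000-fold higher. Calb1, the calcium buffer calbindin, was at 512 ± 85 CPM, and Kl, the coreceptor of the phosphate hormone FGF23, at 562 ± 92.4 CPM, with 1 liver read for Kl and 0 for Calb1.

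In the collecting duct, the principal cells recover water and sodium and the intercalated cells move acid. Of 12 principal cell genes, 11 were higher in the kidney (median 10.45). Aqp2, the water channel that vasopressin moves to the apical membrane, was at 285, 172, 160 and 248 CPM in the kidney, with replicates 1 and 4 above the other two, and at 0 in the liver. Hsd11b2, which protects the mineralocorticoid receptor from glucocorticoids, was at 134 ± 16.2 CPM in the kidney with 1 read in the liver. The receptor itself, Nr3c2, was at 15.2 ± 3.38 and 9.41 ± 3.06 CPM and missed the fold threshold. Of 12 intercalated cell genes, 10 were higher in the kidney (median 10.38), led by the proton pump subunits Atp6v0a4 (253 ± 12.5 CPM) and Atp6v1b1 (108, 114, 103 and 116 CPM, and 0 in the liver) and by the ammonia channel Rhcg, at least 2040-fold higher. Rhbg, its relative, was at 44.7 ± 5.32 CPM in the kidney and 25.6 ± 6.07 in the liver, under the fold threshold.

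Hormone genes of the kidney followed, with 7 of 8 higher in the kidney (median 7.07). Vdr, the vitamin D receptor, was at 190 ± 9.6 CPM with 3 liver reads, a ratio of 3830 (95% counting interval 1310 to 18600). Pth1r, the receptor of parathyroid hormone, was 26.4-fold higher in the kidney. Cyp27b1, which makes the active hormone, was low even there, at 1.43, 2.48, 1.35 and 2.02 CPM, while Cyp24a1, which breaks it down, was at 114 ± 37.4 CPM with no liver read. Agtr1a, the angiotensin receptor, was the exception at 29.4 ± 1.66 CPM in the kidney and 97.2 ± 13.2 in the liver (log2 difference -1.73), and with total counts the difference of -0.65 was not called.

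**Figure D2:**
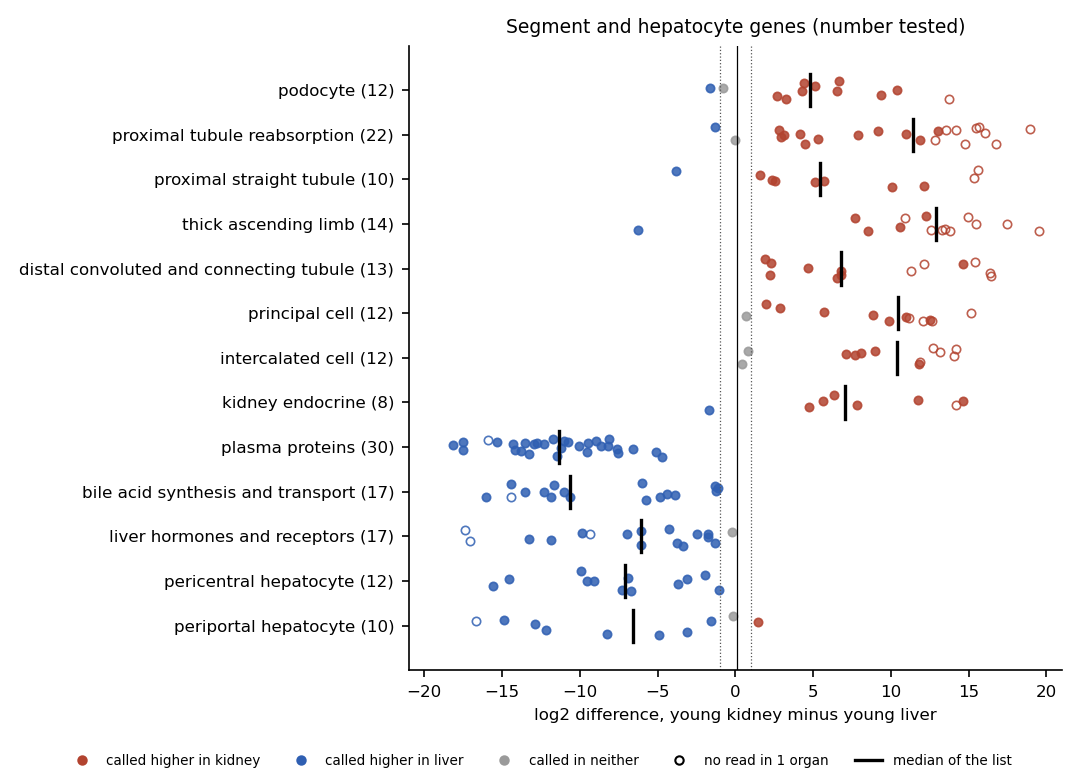
Log2 difference, kidney minus liver, of each gene in the lists of kidney segments and liver programs, with 1 point per gene, where thick bars are list medians, open points are genes with no read in 1 organ, the thin solid line is the median of all genes tested (0.08) and the dotted lines are the 2-fold threshold. The medians of the segment lists lie between 4.77 and 12.91, and those of the liver lists between -11.31 and -6.07.

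On the liver side the separation was as wide. All 30 plasma protein genes were higher in the liver, with a median log2 difference of -11.31. Ahsg, fetuin, was at 15380 ± 3520 CPM in the liver and 0.077 ± 0.0891 in the kidney, and the lipoprotein gene Apoa2 was at 11830 ± 3097 and 5.11 ± 0.925 CPM. F9, a clotting factor, had no kidney read and was at least 12900-fold higher in the liver. Trf, which encodes transferrin, was also measured in the kidney, at 75.4 ± 4.6 CPM against 22340 ± 1948 in the liver.

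The 17 genes of bile acid synthesis and transport were also all higher in the liver (median -10.62; 14 of 17 with total counts). Cyp7a1, the rate-limiting enzyme of bile acid synthesis, was at 139, 186, 156 and 45.8 CPM in the liver, with replicate 4 well under the other libraries, and had no kidney read, which makes it at least 4760-fold higher in the liver. The bile acid ligase Slc27a5 and the uptake carriers Slc10a1 and Slco1b2 led the list per exon length, at 1919 ± 246, 1339 ± 60.9 and 1679 ± 107 CPM in the liver, and in the kidney they were at 0.274 CPM or lower. Abcc2, a canalicular pump that is also known from the proximal tubule, differed least among the genes named here, 2.21-fold, and was not called with total counts.

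The urea cycle differed in size from step to step. All 7 urea cycle genes tested were higher in the liver (median -10.91; 4 of 7 with total counts). Cps1, which brings ammonia into the cycle, was at 7415, 8601, 4427 and 4408 CPM in the liver and at 0 reads in the kidney, at least 225000-fold higher, and Otc, the next step, was at least 29000-fold higher. Asl, by contrast, was at 712 ± 106 CPM in the liver and still at 172 ± 40.3 CPM in the kidney, where it serves arginine synthesis. Ass1, its partner in both organs, had 12 reads in the kidney and 24 in the liver in total and was not entered in the fit. Whether it was low or its reads were not assigned to it in the counting was not tested, so no level is read from these numbers.

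Of 17 hormone and receptor genes of the liver, 16 were higher in the liver (median -6.07). Hamp, hepcidin, the regulator of iron, was at 972, 639, 567 and 1126 CPM in the liver and at 0 in the kidney, and its near-identical copy Hamp2 was at 1007 ± 610 CPM, so that the reads of the pair cannot be divided with certainty. Igf1 was 68.6-fold and Agt, which encodes angiotensinogen, 19.4-fold higher in the liver. Ghr, the growth hormone receptor, was at 554 ± 65.1 and 646 ± 98.5 CPM and was not called (adjusted p = 0.239). Both ends of the lobule were represented. All 12 pericentral genes were higher in the liver (median -7.1), among them Cyp2e1, an oxidase of ethanol, at 9401 ± 1462 CPM against 89 ± 22.2, Rgn, and Cyp2c29. Glul, glutamine synthetase, differed only 2.03-fold, at 645 ± 88.8 CPM in the kidney and 1312 ± 180 in the liver, and its direction turned with total counts (log2 difference 0.05). Of 10 periportal genes 8 were higher in the liver, including Cyp2f2 (300.1-fold) and Gls2, the liver glutaminase. Cdh1, E-cadherin, was higher in the kidney (2.73-fold), and Pck1 was not called.

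Transcription factors (TFs) also divided by organ. Of 30 factors known from the kidney, 29 were higher there (median 6.16). Pax8, which the nephron keeps from its development, was at 47.3, 45.2, 49.9 and 46.2 CPM in the kidney and had no liver read, at least 946-fold higher. Pou3f3, a factor of the distal nephron, was at 91.8, 81, 86.7 and 89.4 CPM and likewise had none. Foxi1, the factor of intercalated cells, was at 22.9 ± 2.09 CPM, and Tfcp2l1, of the collecting duct, at 298 ± 76.1 CPM against 6.53 ± 3.88. Sall1 was the exception, at 66.9 ± 2.37 CPM in the kidney and 64.2 ± 6.49 in the liver, a log2 difference of 0.06 (95% interval -0.19 to 0.31). Of 25 factors known from the liver, 21 were higher in the liver (median -3.9). Foxa2, a pioneer factor of hepatocytes, was at 42.4, 34.8, 29.1 and 33.3 CPM in the liver with 1 read in the kidney. Cebpa was at 472, 515, 471 and 477 CPM in the liver and at 60.9, 56.1, 66.2 and 57.6 in the kidney, so it was present in both and 8.04-fold higher in the liver. Per exon length the leading liver factors were Atf5 (26.5-fold), Creb3l3 (8648-fold) and Cebpa. Tox3, placed in the liver list, was higher in the kidney, with a count ratio of 240 (95% counting interval 66.3 to 1990). Onecut1 was uneven within the liver, at 14.4, 40.9, 13 and 3.12 CPM, and had no kidney read.

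Of 33 factors known in both organs, 7 were higher in the kidney, 7 in the liver and 19 neither (14 and 4 with total counts), with a median of -0.22. These counts lie near the shares of all genes tested (25.7% and 16.9%), and nothing is read from them about the factors as a group. Hnf4a, a nuclear receptor at the head of the epithelial hierarchy, was the most abundant of them per exon length, at 560, 614, 687 and 628 CPM in the kidney and 765, 897, 974 and 931 in the liver. All liver libraries were above all kidney libraries, but the log2 difference of -0.52 (95% interval -0.83 to -0.21) lay within 2-fold, and it turned with total counts (0.57). Those called for the liver included Rxra (98.1 ± 2.69 and 472 ± 74.5 CPM) and Ppara (2.47-fold), partners in the control of fat oxidation. Those called for the kidney included Esrra (4-fold), its coactivator Ppargc1a (8.24-fold) and Maf (4.98-fold). Id2 and Nr2f6 were among those not called.

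**Figure D3:**
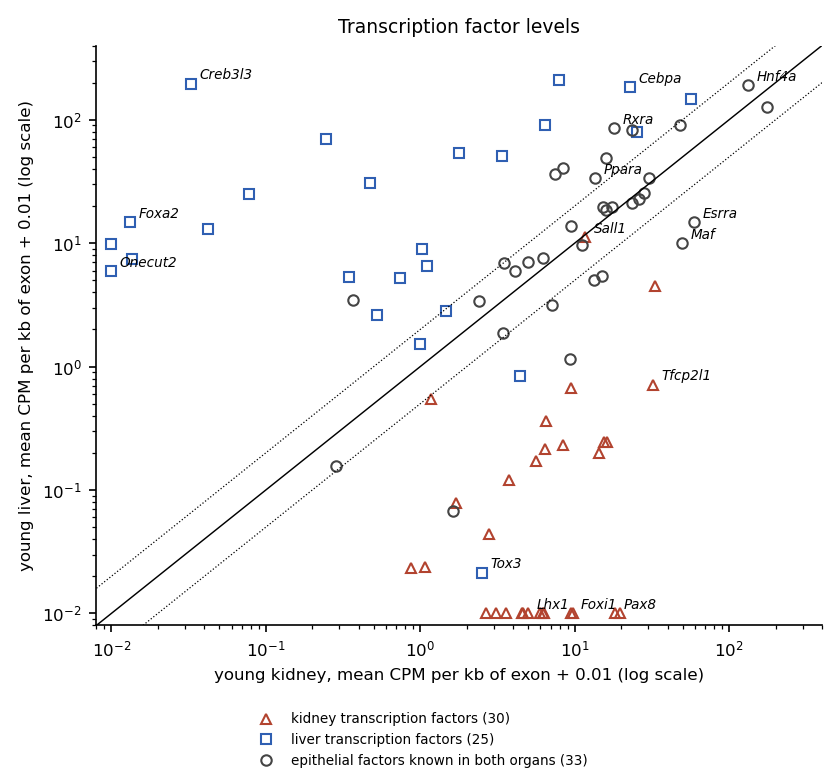
Mean level of each transcription factor in the liver (vertical) against the kidney (horizontal), as CPM per kb of exon plus 0.01, both axes log10, with 1 point per factor and a marker for each list, where the solid diagonal is equality and the dotted lines are 2-fold. Hnf4a and Sall1 lie between the dotted lines, Pax8 and Foxi1 lie on the lower edge with no liver read, and Foxa2 lies near the left edge.

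The recognition motif of HNF4, the factor that Hnf4a encodes, was looked for in the promoters, taken as 250 bases before to 50 bases after the start of each gene in RefSeq (GRCm38.p6). The letters searched were CAAAGTCCA, on both strands. They occurred in 28 of 1821 promoters of genes higher in the liver (1.54%), in 14 of 2761 of genes higher in the kidney (0.507%), in 29 of 6596 of genes called neither (0.44%) and in 150 of all 27025 promoters (0.555%). A match is a description of letters and not a site. The FOXA motif TGTTTAC occurred in 4.67%, 3.33%, 3.11% and 4.05% of the same 4 sets and the CEBP motif TTGCNNCAA in 2.25%, 2.1%, 1.76% and 2.38%. The ESRR motif TCAAGGTCA was in 0.329%, 0.29%, 0.318% and 0.466% of them, and the motif AACCGGTT of GRHL and TFCP2L1 in 0.22%, 0.181%, 0.318% and 0.174%. Another motif that was searched is not reported here, so these values do not show which motif differed most between the sets. Genes of both directions and of neither held the HNF4 letters before their start. The 3 stretches of 100 bases below, none of which passes the start site, show them in a liver gene, a kidney gene and a gene that missed the fold threshold, and they were picked after the matches were known. Cyp8b1, the sterol hydroxylase that sets the make-up of bile acids, was at 334, 346, 468 and 213 CPM in the liver and at 0.202 or lower in every kidney library. Slc3a1, the partner subunit of a cystine transporter of the proximal tubule, was at 409, 420, 426 and 425 CPM in the kidney and 38.5, 43.1, 51 and 56.6 in the liver. Agxt2, a mitochondrial aminotransferase, was at 88.6, 94, 78.9 and 94.9 CPM in the kidney and 186, 168, 150.1 and 166 in the liver (log2 difference -0.91), and its direction turned with total counts (0.17). The libraries of the organs did not overlap for any of these 3 genes, as for 60.5% of all genes tested. The capitals mark the motif, and all are read 5′ to 3′ on the strand of the gene.
Cyp8b1, chr9:121916319-121916418, minus strand: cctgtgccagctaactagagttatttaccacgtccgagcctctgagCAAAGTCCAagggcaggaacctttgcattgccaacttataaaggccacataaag
Slc3a1, chr17:85028247-85028346, plus strand: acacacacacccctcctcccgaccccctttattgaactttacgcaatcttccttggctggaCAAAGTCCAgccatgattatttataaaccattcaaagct
Agxt2, chr15:10358433-10358532, plus strand: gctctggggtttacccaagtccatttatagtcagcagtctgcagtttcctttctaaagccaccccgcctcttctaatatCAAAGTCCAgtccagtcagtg
The motif began 67 bases before the start in Cyp8b1, 39 in Slc3a1 and 21 in Agxt2.

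Open chromatin at promoters was read from the ATAC-seq peaks of 3 young kidney and 3 young liver libraries, which the authors called in each library. A peak within 1 kb of a start site in all 3 kidney libraries and in no liver library was found for 370 of 3615 genes higher in the kidney (10.2%) and for 11 of 2364 higher in the liver (0.465%), against 3.03% of all 14036 genes with a start site (14.1%, 2.12% and 5.6% with −log10 q of at least 5). The reverse pattern was found for 137 of the genes higher in the liver (5.8%) and 4 of those higher in the kidney, against 1.1% of all (3.17% of liver genes and 0.598% of all with the stricter q). A peak in all 6 libraries was found for 62.2% of genes higher in the kidney, 68.2% of genes higher in the liver and 91.4% of the rest, and for 45.2%, 49% and 74% with −log10 q of at least 5. Of the 3 promoters shown above, that of Cyp8b1 had a peak in 1 kidney and 1 liver library, that of Slc3a1 in 3 kidney and 1 liver, and that of Agxt2 in 3 of each. These are peak calls with no count behind them, and the number of peaks per library was 115836 to 128395 in the kidney and 123776 to 130409 in the liver. With −log10 q of at least 5 they were 52970 to 65207 in the kidney and 43297 to 48332 in the liver, so the kidney libraries held more of the peaks that pass it.

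Metabolic pathways ranged from shared to split. Gluconeogenesis, which in the body runs in these organs, was the most even of the carbohydrate lists, since 14 of 19 genes were called neither and 12 had their whole interval within 2-fold, 37.2% of all genes having it (median -0.14). Pck1, its rate-limiting enzyme, was at 2263, 3183, 3614 and 2895 CPM in the kidney and 3263, 3189, 3174 and 3893 in the liver. The libraries of the organs interleaved, and the log2 difference was -0.18 (95% interval -0.58 to 0.23, adjusted p = 0.416). G6pc, which releases free glucose, was at 586, 487, 536 and 591 CPM in the kidney and 1098, 604, 589 and 762 in the liver, with 1 liver library within the kidney range. Fbp1 was at 921 ± 136 and 1651 ± 157 CPM, with no overlap but under the fold threshold (log2 difference -0.84). The 5 genes that were called were Fbp2 (103-fold), G6pc3 (7.61-fold) and Pck2 (2.29-fold), higher in the kidney, and Got1 (5.38-fold) and Got2 (2.29-fold), higher in the liver. With total counts the list had 9 genes higher in the kidney and 1 higher in the liver.

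Of 21 glycolysis genes 6 were higher in the kidney, 6 in the liver and 9 neither (12 and 5 with total counts), where 25.7% and 16.9% of all genes tested were higher in the kidney and the liver. The kidney count is near its share and the liver count above it, and nothing is read from these counts about the list. Single steps of glycolysis and glycogen had genes that ran opposite ways. Pklr, the liver pyruvate kinase, was at 584, 419, 341 and 288 CPM in the liver and 43.5, 47.1, 58.3 and 45.6 in the kidney. Pkm, the other pyruvate kinase, ran the opposite way, at 361, 372, 283 and 409 CPM in the kidney and 44.6, 37.6, 33.3 and 42.9 in the liver. Neither gene overlapped between the organs, as was so for 60.5% of all genes tested. Ldhb, the lactate dehydrogenase of aerobic tissue, was at 1046 ± 180 CPM in the kidney and 4.03 ± 1.1 in the liver, and Ldha was 2.34-fold higher in the liver. Of 15 glycogen genes 7 were higher in the liver and 4 in the kidney, and with total counts 5 and 6 were, with the median turning from -0.87 to 0.23. The liver genes were led by the phosphorylase Pygl (20-fold), Ugp2 and the glycogen-targeting subunit Ppp1r3b (178-fold), and the kidney genes included Gys1, the muscle-type synthase (24.3-fold).

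The lists of fat oxidation and synthesis held more calls for the liver than for the kidney, where 16.9% and 25.7% of all genes tested were called. Of 22 genes of fatty acid oxidation 10 were higher in the liver, 1 in the kidney and 11 neither (4 and 1 with total counts). The median was -0.96, and 0.12 with total counts. Acaa2 and Acaa1b, both thiolases, were 4.95-fold and 4.8-fold higher in the liver. The 1 gene higher in the kidney was Acadm, the medium-chain dehydrogenase, at 828, 1095, 1747 and 1229 CPM against 445, 387, 732 and 527, a call that was lost in a test against the fold threshold itself (edgeR's glmTreat). Of 8 genes of ketone bodies 2 were higher in the kidney, 3 in the liver and 3 neither (3 and 1 higher with total counts), with a median of -0.86 that turned to 0.23. The kidney count lies near the share of all genes and the liver count above it. With 8 genes nothing is read from these counts. Oxct1, the transferase that users of ketone bodies need, was at 1183, 1307, 1179 and 1252 CPM in the kidney and 8.4, 5.83, 8.49 and 7.28 in the liver, a log2 difference of 7.36. Acat1, which serves both the making and the use of ketone bodies, was at 447 ± 42.3 and 815 ± 237 CPM and not called. Of 18 genes of lipid synthesis and export 15 were higher in the liver (10 with total counts), including Scd1, the desaturase, at 8098 ± 3943 CPM against 994 ± 409, Pemt, which makes phosphatidylcholine (594-fold), and Apob (26.3-fold). Scd2 was the only one of the list higher in the kidney (9.55-fold).

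In the tricarboxylic acid cycle 13 of 18 genes were within 2-fold, where 37.2% of all genes tested were, with a median of 0.3 (1.39 with total counts). The 5 called genes were all higher in the kidney (12 with total counts), a share near the 25.7% of all genes tested, among them Idh3a (3.11-fold) and Ogdh (2.71-fold), while Sdhb was at 318 ± 60.7 and 347 ± 63.8 CPM and Mdh2 at 360 ± 62.5 and 244 ± 51.7. In branched chain amino acid breakdown 11 of 17 genes were within 2-fold and 12 were called neither, as were 8070 of the 14057 genes tested (median -0.13; 8 higher in the kidney and 0 in the liver with total counts). Hibadh, Bckdha and Pccb, its most abundant genes per exon length, all missed the fold threshold. Bcat2, the first step, and Bckdk, the kinase that holds the pathway back, were 3.41-fold and 3.66-fold higher in the kidney, and Bckdhb was 2.89-fold higher in the liver.

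**Figure D4:**
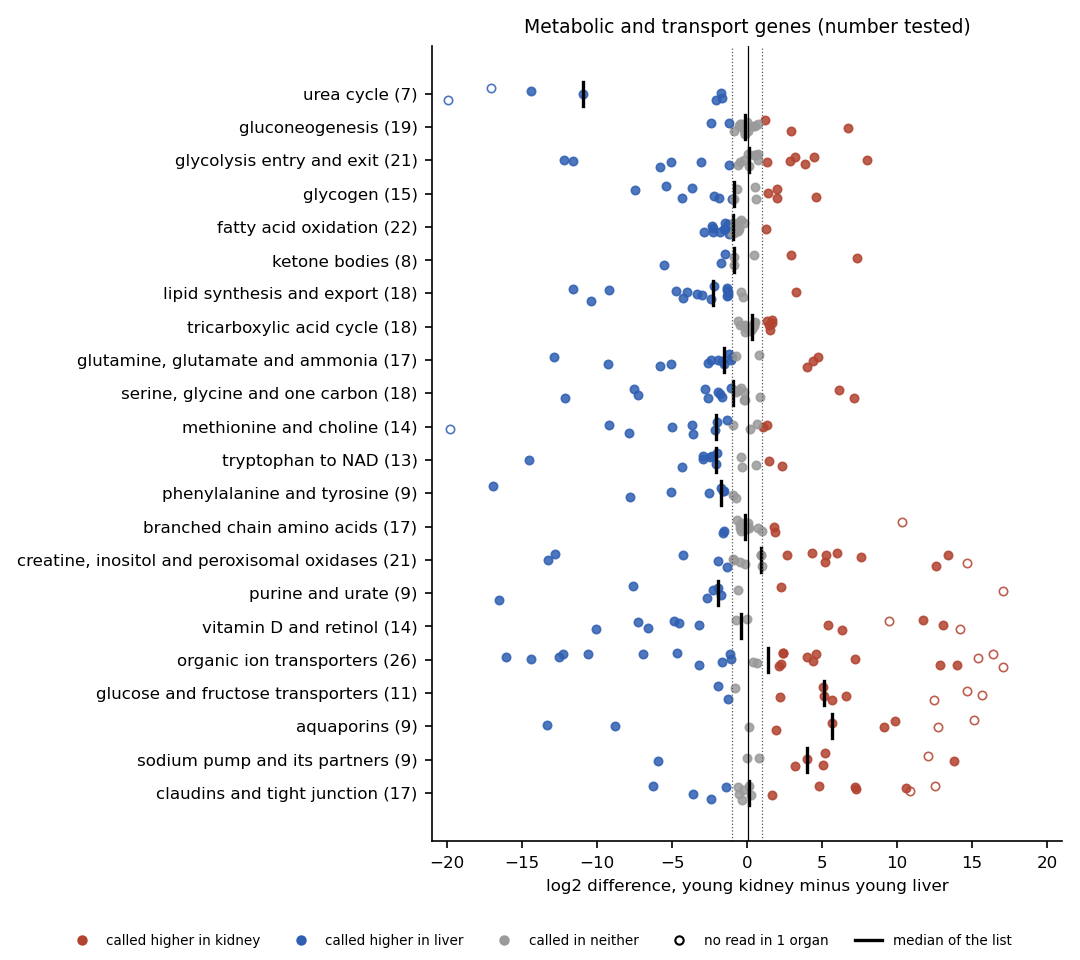
Log2 difference, kidney minus liver, of each gene in the metabolic and transport lists, with 1 point per gene, drawn as in the plot of the identity lists. Medians near 0 belong to lists with few called genes, such as gluconeogenesis (-0.14), and also to lists with calls in both directions, such as glycolysis (0.12), and the median farthest to the left belongs to the urea cycle (-10.91).

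The other amino acid lists held more calls for the liver than for the kidney, where 16.9% of all genes tested were called for the liver. For methionine and choline, 9 of 14 genes were higher in the liver, where Bhmt, which remethylates homocysteine with betaine, was at 7809, 7090, 8407 and 3615 CPM against 25.3, 29.2, 27.5 and 33 in the kidney, and Mat1a had no kidney read and was at least 199000-fold higher. Mat2a and Mtr were higher in the kidney, by 2.06-fold and 2.58-fold, and 4 genes were with total counts. Both calls were lost in the test against the fold threshold, and that of Mat2a also without kidney replicate 3 or liver replicate 2 (log2 difference 0.98 and 0.95). For tryptophan to NAD, 8 of 13 were higher in the liver, led by Tdo2, the first step, at 1467 ± 264 CPM against 0.0474 ± 0.0725, with Haao (7.78-fold) and Qprt (3.93-fold) after it. Acmsd, which diverts the pathway away from NAD, was 4.98-fold and Nmrk1, which salvages nicotinamide riboside, 2.71-fold higher in the kidney. Phenylalanine and tyrosine breakdown had 7 of 9 genes higher in the liver (4 with total counts). Tat, an aminotransferase of tyrosine, had 1 kidney read and 1994 ± 240 CPM in the liver, and Hpd was 34-fold higher in the liver.

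Serine, glycine and one carbon metabolism had 9 of 18 genes higher in the liver and 2 in the kidney (5 and 3 with total counts), where 16.9% and 25.7% of all genes tested were. Its median turned from -0.92 to 0.15 with total counts. Gnmt (188-fold), Aldh1l1 (6.04-fold) and Sardh (3.84-fold) stood on the liver side. The 2 genes on the kidney side, Phgdh (26 ± 4.09 CPM against 0.184 ± 0.109) and Psat1 (72-fold), encode enzymes of serine synthesis. Of 17 genes of glutamine, glutamate and ammonia, 12 were higher in the liver and 3 in the kidney (6 and 4 with total counts). Gls2 was at 861, 759, 365 and 813 CPM in the liver and at 0.121 or lower in every kidney library. Oat, Slc38a3 and Glud1 were 3.91-fold, 33.5-fold and 3.25-fold higher in the liver.

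Creatine synthesis ran across the organs. Gatm, the first step, was at 1159, 1198, 976 and 1011 CPM in the kidney and 19, 21.6, 11.7 and 16.4 in the liver (log2 difference 5.98). Gamt, the second, was at 12.6, 15.1, 10.7 and 21.6 CPM in the kidney and 346, 313, 199 and 289 in the liver (log2 difference -4.25). The libraries of the organs did not overlap for either gene, as for 60.5% of all genes tested. In the same list Miox, which opens the ring of inositol, was at 2000 ± 437 CPM in the kidney and 0.322 ± 0.246 in the liver, and Sord, sorbitol dehydrogenase, was within 2-fold. The peroxisomal oxidases also divided, with Hao2 (20.2-fold) and Dao, a D-amino acid oxidase, on the kidney side and Hao1 on the liver side. Agxt, an aminotransferase that like Hao1 handles glyoxylate, was on the liver side too. For urate, Uox, the urate oxidase that mice keep and humans lack, was at 2607, 2027, 2161 and 2968 CPM in the liver with 2 kidney reads in all, and Slc22a12, the urate transporter URAT1, was at 711, 681, 997 and 952 CPM in the kidney with no liver read, at least 16400-fold higher. Urah, which acts after Uox, was 201-fold and Xdh, which makes urate, 6.33-fold higher in the liver, and Abcg2, a urate exporter, 4.7-fold higher in the kidney. In all, 6 of 9 genes of this list were higher in the liver (4 with total counts) and 2 in the kidney. For vitamin D and retinol, 6 of 14 were higher in each organ. Of all genes tested, 25.7% were higher in the kidney and 16.9% in the liver. The plasma carriers Gc (97.3-fold) and Rbp4 (1076-fold) and the dehydrogenase Aldh1a1 (158-fold) were on the liver side.

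Where 2 genes encode enzymes of the same step or close relatives among transporters and factors, the share of each within a library does not depend on the scaling. Over 34 such pairs, counted per kb of exon, 31 differed in share between the organs in an exact 2-sided permutation test over the 70 splits of 8 libraries (p = 0.0286, the smallest that 4 against 4 allows, and 0.0313 after Benjamini-Hochberg adjustment). In 21 of these 31 the majority gene switched, read as group means on opposite sides of 50%. Some of these means lay near 50%, with libraries on both sides of it. The share of Atp1b1 in its pair, for example, was 54.2%, 49.6%, 42.3% and 50.8% in the liver libraries. With the replicate numbers as pairs, an exact sign-flip test cannot go below p = 0.125 and called 0 of the 34. For pyruvate kinase, Pklr was 16 ± 4.02% in the kidney and 93 ± 1.98% in the liver. For methionine adenosyltransferase, Mat1a was 0% and 98.1 ± 0.386%, and for lactate dehydrogenase Ldha was 22.8 ± 2.54% and 99.4 ± 0.246%. Gys2 was 26.5 ± 0.478% of glycogen synthase in the kidney and 99 ± 0.656% in the liver. The steps of gluconeogenesis differed in share but kept their majority gene, since Pck1 was 99.5 ± 0.101% and 99.8 ± 0.0224% of Pck1 plus Pck2 and Fbp1 was 97.2 ± 0.362% and 100 ± 0.0153% of Fbp1 plus Fbp2. The 3 pairs that did not pass were Cpt1a with Cpt1b (p = 0.143 in the same exact test), Acaca with Acacb (p = 0.114) and Gpd1 with Gpd2 (p = 0.371).

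**Figure D5:**
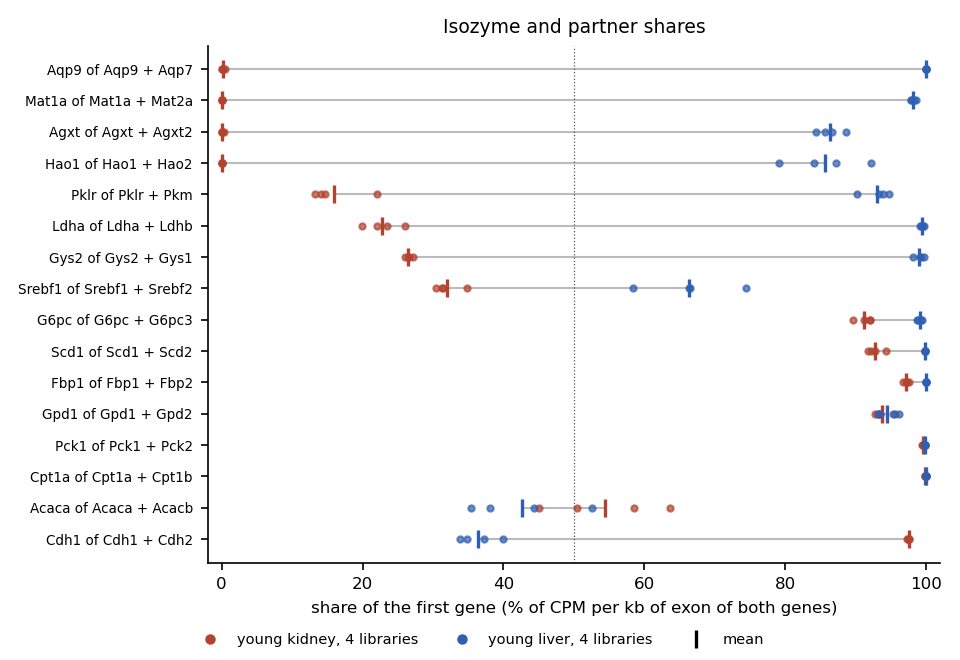
Share of the first gene in pairs named in the text (percent, per kb of exon) in each of the 8 libraries, with 1 point per library (red for kidney, blue for liver), a bar at each mean and a dotted line at 50%. For Mat1a with Mat2a the organs sit at opposite ends, for Ldha with Ldhb at 22.8% and 99.4% on average, and for Pck1 with Pck2 they sit together above 99%.

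Transporters of organic ions were spread over both organs, with 13 of 26 higher in the kidney and 11 in the liver, where 25.7% and 16.9% of all genes tested were. Slc22a6 and Slc22a8, the anion transporters OAT1 and OAT3 through which the proximal tubule secretes drugs, were at 363 ± 44.2 and 520 ± 74.1 CPM in the kidney with 1 and 0 liver reads, and the cation transporter Slc22a2 was at 172 ± 23.8 CPM with 1 liver read. Slc47a1, which exports cations, was at 251 ± 11.2 and 156 ± 23.5 CPM. Slco1a1 was at 381 ± 157 CPM in the liver and 0.0606 ± 0.121 in the kidney. Of 11 glucose and fructose transporters 8 were higher in the kidney (median 5.11). Slc2a2, the basolateral carrier that both organs use, was at 138 ± 16.9 CPM in the kidney and 334 ± 71.8 in the liver, while Slc5a10 had no liver read and Slc2a5, the fructose carrier, was 35-fold higher in the kidney.

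Water channels divided by gene. Of 9 aquaporins 6 were higher in the kidney and 2 in the liver, where 25.7% and 16.9% of all genes tested were. Aqp1 was at 695, 738, 718 and 802 CPM in the kidney and 187, 187, 172 and 217 in the liver, 3.88-fold apart. Aqp9, the glycerol channel of hepatocytes, was at 568, 542, 537 and 546 CPM in the liver and 0, 0.122, 0.0483 and 0 in the kidney, and Aqp8 was 457-fold higher in the liver. Aqp7, the glycerol channel of the kidney, was at 21.6 ± 4.71 CPM there and 0.0342 ± 0.0398 in the liver, and Aqp11 was not called (31.8 ± 2.95 and 29.2 ± 6.44 CPM).

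The sodium pump that drives tubular transport was higher in the kidney in 6 of 9 genes (median 4.01). Atp1b1, its beta subunit, was at 1789, 1946, 1548 and 1698 CPM in the kidney and 59.4, 46.9, 42.2 and 59.5 in the liver, 33.6-fold apart. The small modulators of the pump ran opposite ways, since Fxyd2 was at 1764 ± 396 CPM in the kidney and 0.11 ± 0.105 in the liver and Fxyd1 was 60.9-fold higher in the liver. Of 17 claudins and tight junction genes, 7 were higher in the kidney and 4 in the liver, where 25.7% and 16.9% of all genes tested were. Cldn2, a cation pore of leaky epithelia, was 3.13-fold and Cldn10 1521-fold higher in the kidney, and Cldn3 12.1-fold higher in the liver. Among cadherins and keratins (5 higher in the kidney and 3 in the liver of 10), Cdh16, kidney cadherin, was at 1042 ± 139 CPM against 0.0928 ± 0.186, and N-cadherin, Cdh2, was 24.4-fold higher in the liver. Krt8 and Krt18, the keratins of simple epithelium, were 4.06-fold and 11.4-fold higher in the liver.

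Cells other than the parenchyma also differed between the libraries. All 7 Kupffer cell genes were higher in the liver, at summed levels of 617 to 993 CPM against 40.8 to 52.6 in the kidney, and Clec4f, which defines these macrophages, had no kidney read. All 8 genes of liver sinusoidal endothelium and 6 of 7 of stellate cells were higher in the liver, with Pdgfrb as the exception (3.09-fold higher in the kidney). In the kidney, the 5 fat cell genes summed to 211 to 411 CPM against 1.82 to 3.45 in the liver, with Cfd at 183, 152, 290 and 146 CPM, and the urothelium genes to 15.1 to 47.3 against 2.57 to 5.95, with Upk1a at 9.37, 3.85, 13.5 and 2.99 CPM. Both lists moved with the kidney label in all 4 libraries, and their part in the results above was not tested. Of 8 cholangiocyte genes 6 were higher in the kidney, and these genes also mark tubule epithelium. Hemoglobin genes and Ren1, renin, were listed at 0 in every library, and whether their RNA was absent or their reads were not assigned in the counting was not tested. Housekeeping genes set a scale for these values, with 12 of 14 called neither, 2 higher in the liver and a median of -0.2 (5 higher in the kidney, 1 in the liver and a median of 0.89 with total counts), and B2m was 10.9-fold higher in the liver. With total counts, the liver calls of Abcc2, Acaca, Agtr1a, Asl, Bckdhb, Glud1, Got2, Krt8, Ldha, Nr1h3, Oat, Ppara, Qprt, Sardh, Slc26a1 and Slc2a2 fell under the fold threshold. In the test against the fold threshold, Abcc2, Acaca, Acadm, Akr1a1, Glul, Got2, Ldha, Mat2a, Mtr, Pck2 and Slc2a2 lost their calls, and 2929 and 1817 genes were called in all.

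Outside the lists, genes called for 1 organ were ranked by mean CPM, without exon length. The first in the kidney was Gpx3, the secreted glutathione peroxidase that the kidney supplies to plasma (22320 ± 2901 CPM in the kidney and 9.26 ± 2.53 in the liver). It was followed by Kap, at 6845, 7274, 9725 and 12830 CPM in the kidney, Ndrg1, Klk1, Keg1, Tcn2, Akr1a1 and Acsm2. The largest of these folds was for Kap, with a count ratio of 271000 (95% counting interval 74900 to 2230000), and the smallest for Akr1a1, with a log2 difference of 1.27. In the liver they were Apoe (39040 CPM against 515 in the kidney), Serpina3k, Serpina1b, Selenop, Mup3, Ces1c, Pzp and Serpina1d. Selenop, which carries selenium to other organs, was at 10150 CPM in the liver and 877 in the kidney, while the other members besides Apoe were at 28.7 CPM or lower in the kidney. Several of these are members of near-identical families (Serpina1b with Serpina1d, Mup3, Ces1c), and Cyp2c29 and Acaa1b above have such relatives too, so how their reads were divided is uncertain. Counting was without strand, and Egf, Apoa2, Aldh1a1, Acaa1b, Oxct1, Slc5a10, Gpd1, Slc3a1 and Cpt1b share 10.6% to 94.8% of their exon bases with another gene, most for Cpt1b.

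The same contrast in old mice gave 3590 genes higher in the kidney (24.6% of 14578 tested) and 2343 higher in the liver (16.1%). Of the young calls, 2943 for the kidney (81.3% of the young and 82% of the old calls) and 1920 for the liver (81% and 81.9%) were called the same way in old mice, and 9 were called the opposite way. Most identity lists kept their young calls in the old libraries, including all 30 plasma protein genes, all 17 bile acid genes, all 14 of the thick ascending limb and all 29 called kidney factors. Calls were lost among liver hormones and receptors (14 of 16 kept), genes of the distal convoluted and connecting tubule (12 of 13) and liver factors (22 of 23). In gluconeogenesis the 5 called genes had the same call, and in the tricarboxylic acid cycle 4 of 5 did. Of the 21 pairs that differed in share in young mice and whose majority gene switched, 18 also switched in old mice by their means. The shares of old libraries were close to the young for Ldha (21.6 ± 2.96% in the kidney and 99.5 ± 0.126% in the liver), and more spread in the old kidney for Mat1a in Mat1a plus Mat2a (5.29 ± 10.6%, against 0% in every young kidney library). That spread came from old kidney replicate 2, with a share of 21.1% against 0% to 0.0257% in the other old kidney libraries. Plasma protein genes in it reached 1.08% of the old liver mean (median over genes), and 0.0494% to 0.0667% in the other three. Without it the old calls were 3536 and 2417. The organ difference itself changed with age, by the interaction term of edgeR's quasi-likelihood test, for 258 of 15036 genes, and for 167 of 15147 without that library, with 156 in common.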

How the data were processed

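RNA was measured in the 8 young and 8 old libraries described above. Per the study's methods, reads were trimmed with Trimmomatic, aligned to mm10 with HISAT2 and counted per gene with HTSeq-count without strand. The authors deposited whole-number counts per gene. Rows that name no gene held 24.2% to 28.78% of kidney and 16.47% to 22.13% of liver alignments and were left out. Of these, reads outside genes were 11.85% to 13.01% and 5.7% to 8.23%, and reads with several alignments 9.03% to 13.01% and 7.61% to 11.64%. For ATAC-seq the authors deposited MACS2 peaks per library with a fold (ratio) over background and −log10 p and q values, of which positions were used and the deposited −log10 q values served as 1 stricter threshold of 5. Counts were fitted with edgeR 4.0.16 (TMM, filterByExpr with a minimum count of 10, quasi-likelihood F test, Benjamini-Hochberg adjustment over all genes tested). Calls needed an adjusted p below 0.05 and more than a 2-fold difference. SEs come from the F statistic. The fit was tested on simulated data, where 197 of 200 genes changed 4-fold among 14134 genes were found, with 1 false call. Apart from the changed genes, the simulated libraries shared the same expected levels and a common dispersion. The simulation therefore did not test the scaling between organs of unlike composition. Intervals of count ratios and the floor of 3 counts cover counting error only.

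The members and the 52 gene lists (674 genes) were chosen with earlier results of these data known. In each list the 3 most abundant genes per exon length, the members called against the majority and members within 2-fold were named first, with further members by their role. Outside the lists the 8 genes per direction with the highest mean CPM were named. Some genes that this rule would name are not reported here. Gene lengths and positions are from RefSeq GRCm38.p6, which named 24851 of 24984 genes (422 through a synonym), and 11178 tested genes had a promoter there. Same-numbered kidney and liver libraries deviated together (r = 0.12, 0.219, 0.104 and 0.452), so the numbers may pair the libraries, though r between differently numbered libraries ran from -0.337 to 0.241 and kidney 1 was closer to liver 2 than to liver 1. A fit with the number as a block is given with the other settings, which were DESeq2 1.42.0, other size factors, other filters, a test against the fold threshold and leaving out each library.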

Additional observations from a re-analysis of the deposited data

Results flagged for a closer look

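The organ difference of 8 genes named above changed between young and old mice in the interaction term of edgeR's quasi-likelihood test, out of 213 named genes that entered it. Among all genes it changed for 258 of 15036. The values here are the old minus the young log2 difference between kidney and liver. They were 5.42 for Creb3l3 (adjusted p = 0.0182), 3.41 for Acsm2 (0.00338), 2.71 for Cdh1 (0.00132), 2.37 for Aldh1a1 (0.01), 1.94 for Urah (0.0135), -1.55 for Slc22a30 (0.0344), -2.06 for Slc3a1 (0.0054) and -2.11 for Slc13a3 (0.0154). Cdh1 went from 56.5 CPM in the young liver to 7.28 in the old liver, with 154 and 131 in the kidney. Slc3a1 went from 47.3 CPM in the young liver to 205 in the old liver, with 420.1 and 441 in the kidney. Creb3l3 went from 0.052 CPM in the young kidney to 1.62 in the old kidney. Without old kidney replicate 2, in which liver genes were raised, Creb3l3 was at 4.5, and Slc22a30 no longer passed (adjusted p = 0.073).

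Of 381 groups of 4 libraries tested for a library far from the others, 16 held one, and chance would give about 5% of them. In the kidney, replicate 4 stood high for Acaa1b (466 CPM), Asl (232), Fxyd2 (2350), Ldhb (1320), Sdhb (409), Tcn2 (1760) and Hoxb7 (24.2), replicate 2 for Calb1 (639), and replicate 1 stood low for Alb (7.02). In the liver, replicate 4 stood high for Agxt (876 CPM), Akr1a1 (706), Pck1 (3890), Pth1r (27.0) and Rgn (3570), while replicate 2 stood high for Cebpa (515) and low for Gys2 (117).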

How the results depend on the processing

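With total counts in place of TMM, 7802 genes were higher in the kidney and 1240 in the liver, and with the adjusted p alone 4246 were higher in the liver. Leaving out 1 library gave 3577 to 3857 and 2350 to 2462, and 30 to 31 isozyme pairs. With the replicate number as a block, 3674 and 2330 genes were called, 3594 and 2319 of them shared with the fit above. The block left 0 of 34 isozyme pairs in an exact sign-flip test, whose smallest p is 0.125. With −log10 q of at least 5, peaks in the kidney only were at 14.1% of kidney genes, 2.12% of liver genes and 5.6% of all genes, and peaks in the liver only at 3.17% of liver genes and 0.598% of all. Within 250 bases, peaks in the kidney only were at 11.4% of kidney genes and 3.51% of all. Log2 differences that changed sign with total counts were Acat1 0.23, Agxt2 0.17, Bckdha 0.6, Cpt1a 0.53, Fbp1 0.23, G6pc 0.6, Ghr 0.86, Glul 0.05, Gpd1 0.82, Gpd2 1.08, Hibadh 0.79, Hnf4a 0.57, Mlx 0.9, Nr1h2 0.93, Nr2f6 0.18, Pck1 0.91, Plce1 0.26, Sdhb 0.96, Sord 0.62 and Srebf2 0.85. Values near 0 also changed sign, with upper quartile factors for Gpd2 (0.12) and Sdhb (0.0), with a minimum mean of 1 CPM and with no filter for Gpd2 (0.0 in both), with the block for Gpd2 (0.01) and with RLE factors for Slc9a3r1 (-0.0), and on leaving out 1 library for Aqp11 (range -0.02 to 0.21), Gpd2 (-0.12 to 0.15), Nr1h2 (-0.32 to 0.02), Sall1 (-0.0 to 0.11) and Slc9a3r1 (-0.08 to 0.1). Glul, Mat2a and Ldha were called in the fit above and fell under the fold threshold without 1 library or another, at log2 differences of -0.99 to -0.96, 0.95 to 0.98 and -0.93. Of all values recomputed, 3540 kept their direction and call, 35 lost the call, 11 gained it and 35 changed sign. Genes with few reads, such as Cyp27b1 in the kidney, are limited by depth.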

Other observations

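Factors that pattern the nephron in the embryo were still read in the young adult kidney. Pax2 (20.8 ± 1.73 CPM), Lhx1 (20.7 ± 1.38), Emx2 (24.5 ± 1.4) and Irx2 (16.7 ± 1.38) had no liver read in any library, and Hoxb7, of the ureteric bud lineage, was at 20.6 ± 2.47 CPM in the kidney and 0.298 ± 0.218 in the liver. All were called higher in the kidney in the old libraries as well.

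Among factors that answer to glucose or sterols, 3 were called higher in the liver and 3 relatives were not called, and these 6 were chosen after their values were seen. Mlxipl, the glucose-responsive ChREBP, was at 31.2 ± 4.49 CPM in the kidney and 151 ± 28.8 in the liver, Srebf1, which drives lipid synthesis, at 33.7 ± 3.85 and 164 ± 21.8, and Nr1h3, a sterol receptor, at 48.2 ± 8.84 and 170 ± 23.5. Their paralogues or partners Mlx, Srebf2 and Nr1h2 (Srebf2 and Nr1h2 also answer to sterols) were not called, with log2 differences of -0.18, -0.22 and -0.17 that turned with total counts, under which Nr1h3 (-0.73) was not called either.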
